A study of Homo sapiens with 4 samples.

Results

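Processed pseudogenes of cytosolic ribosomal protein genes were described in the established human lung cancer line H1299 (non-small-cell type) after exposure to mercury chloride (HgCl2). A processed pseudogene is a copy of a spliced mRNA that was reverse transcribed and inserted back into the genome, so that it lacks the introns of its parent gene and often carries a remnant of the poly-A tail. Ribosomal protein mRNAs are short and abundant, and they are among the mRNAs most often copied in this way in mammals. Most such copies have no promoter of their own, and a copy with few changes is hard to tell from its parent mRNA in short reads. Transcripts annotated as processed pseudogenes with a symbol of a ribosomal protein parent numbered 1523, and 125 of them were selected on their measured counts, with a mean of at least 20 counts over the 4 columns. These 125 stood among 227368 listed transcripts. They traced to 40 parent genes, with 83 copies of 26 large-subunit genes and 42 copies of 14 small-subunit genes. Of the rest, 356 had some counts but a mean under 20, and 1042 had no count in any column.

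Poly-A selected RNA was sequenced from 2 groups of 2 columns each. The HgCl2 group received 5 µM HgCl2 for 48 h, and the EtOH group is the solvent control, although the treatment text of the labels names HgCl2 for all 4 samples and the treatment tag of the EtOH samples reads wild type. H1299 is a single line, and the labels do not say whether the 2 columns of a group came from separate cultures, while the study describes its libraries as biological replicates. Column totals ranged from 4720978 to 5053120 counts. Columns of the same group were closer to each other than sampling noise allows: the variance of their difference was 0.505 of that of independent Poisson counts in EtOH and 0.516 in HgCl2. Each group was therefore counted as 1 sample, no p-value is given, and the 95% exact intervals beside log2 fold changes cover counting error only. Among markers of the line, VIM (mesenchymal filament) had 620, 628, 501 and 511 counts and KRT8 (epithelial keratin) had 53, 58, 4 and 4 in EtOH 1, EtOH 2, HgCl2 1 and HgCl2 2. PTPRC, ALB and HBB, which mark blood cells and liver, had none, while PECAM1 had at most 5 and COL1A1 at most 18 in any column.

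The copies with counts were those closest in sequence to the parent mRNA, a property that the selection did not use. Identity to the parent mRNA, over the aligned bases of the annotated GRCh38 transcripts, had a median of 97.5% in the 125 and 87.9% in the other 1398 listed. Of the 36 listed copies with an identity of at least 99%, 29 passed the count threshold, and together these 36 held 66.3% of all counts on listed copies. Between 98% and 99% the number was 28 of 37, between 97% and 98% it was 23 of 41, and between 95% and 97% it was 19 of 98. From 90% to 95% only 23 of 441 passed, and under 90% it was 3 of 870. These last 3 were RPL15P5 (89.6%), RPS20P2 (82.2%) and RPL13P8 (72.1%). Exceptions stood on the other side as well. Of the 7 listed copies identical to their parent over the aligned length, 4 passed (RPL21P16, RPL39P3, RPL36AP37 and RPL41P1, with 15.7% of the counts of the 125), and RPL29P34, RPL41P5 and RPS28P7 did not.

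**Figure D1:**
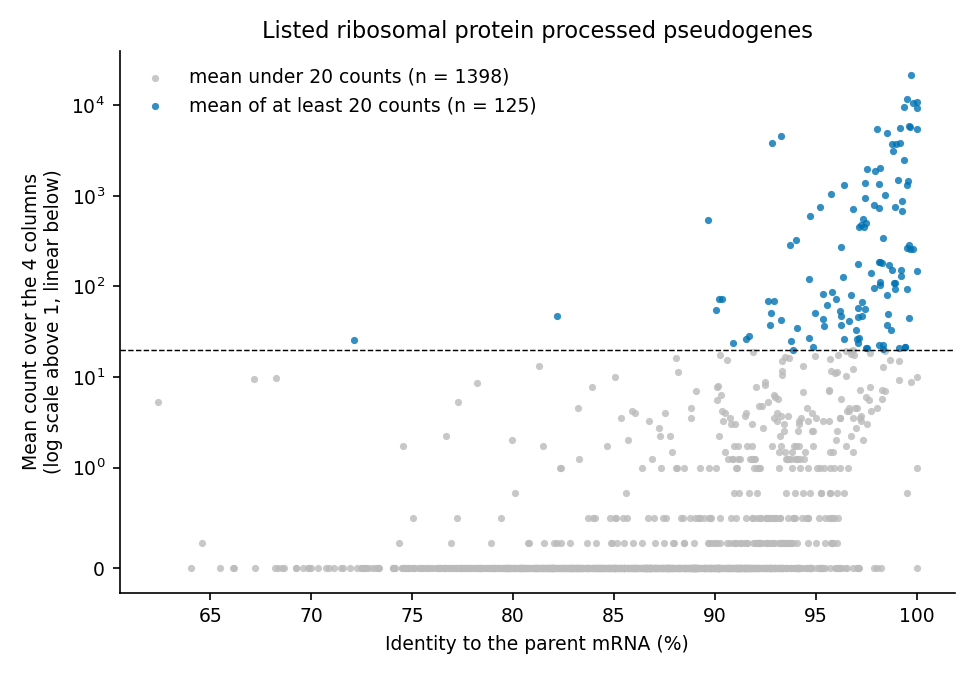
Each point is 1 listed processed pseudogene, with its identity to the parent mRNA in percent on the horizontal axis and its mean count over the 4 columns on the vertical axis (log scale above 1, linear below). The 125 at or above the dashed line at 20 counts lie mostly to the right, with 29 of them at an identity of 99% or more, and most of the 1398 others lie at or near 0.

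RPL39, a small protein of the large subunit, shows how few bases separate copies whose counts lay far apart. The lines below give bases 11 to 130 of the RPL39 coding sequence, in the 5′ to 3′ direction, with each base that differs from the parent in capitals. The parent gene is on chrX:119786504-119791630 (minus strand, GRCh38), and the stretches shown are chr6:73373134-73373253 for RPL39P3, chr2:70253881-70254000 for RPL39P15 and chr19:18285369-18285486 for RPL39P38, all on the minus strand.
RPL39: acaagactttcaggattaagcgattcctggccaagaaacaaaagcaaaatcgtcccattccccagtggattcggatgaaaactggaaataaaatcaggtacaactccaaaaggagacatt
RPL39P3: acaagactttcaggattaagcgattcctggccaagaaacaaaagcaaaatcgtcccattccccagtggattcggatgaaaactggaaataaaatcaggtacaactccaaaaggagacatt
RPL39P15: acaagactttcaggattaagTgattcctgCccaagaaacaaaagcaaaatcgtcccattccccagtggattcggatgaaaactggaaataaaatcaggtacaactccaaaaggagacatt
RPL39P38: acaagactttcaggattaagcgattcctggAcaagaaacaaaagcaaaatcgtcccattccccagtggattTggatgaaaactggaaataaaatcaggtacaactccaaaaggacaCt
RPL39P3, 156 bases long and identical to the coding sequence, had 10020 and 9983 counts in EtOH and 8772 and 8797 in HgCl2. RPL39P15, of the same length with 2 differing bases in this stretch, had 38 and 41 counts in EtOH and 23 and 29 in HgCl2. RPL39P38, which has 3 differing bases and 2 missing ones in this stretch, had 27 and 32 in EtOH and 44 and 43 in HgCl2. The mean count of the intact copy was thus over 200 times that of either other copy, while the RPL39 gene itself held 11, 13, 4 and 5. Per length, RPL39P3 had the highest level of the 125 in the deposited FPKM values, at 11671 in EtOH and 12808 in HgCl2, against medians of 48.6 and 46.2 over the 125.

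Long reading frames were more frequent among the 125 than among the other listed copies. A reading frame at least as long as the coding sequence of the parent was found in 39 of the 125 (31.2%) and in 59 of the other 1398 (4.22%). These sets also differ in median identity to the parent (97.5% and 87.9%), and reading frames were not compared at like identity. At least 1 frameshift was found in 47 of the 125. Of the 125, 122 were annotated as a single exon, 113 covered at least 95% of the parent coding sequence, and 89 had a stretch of 20 bases with at least 10 A within the 50 bases downstream of their end. Lengths ranged from 81 bases (RPL41P1) to 1311 (RPL4P3), with a median of 509. Other genes lay around many of the copies. A coding gene spanned 14 of them on the same strand and 31 on the opposite strand, 59 overlapped no other gene, and 8 overlapped an exon of another gene. The library kit named in the methods does not mark strand, while the study calls the sequencing directional, and the strand setting of the counting is not given in the sources used here. Reads from such copies and from overlapping transcripts may therefore not be told apart.

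Counts were concentrated on few copies. RPL7P9 alone held 13.0% of the counts of the 125, and the 5, 10 and 20 highest held 38.8%, 58.3% and 81.1%. RPL7P9, a copy of the large-subunit gene RPL7, had 19314 and 19301 counts in EtOH and 23263 and 23431 in HgCl2, with no overlap between the groups and a log2 fold change of 0.42 (0.39 to 0.45). RPS3AP6, a copy of the small-subunit gene RPS3A, had 12005 and 11852 counts in EtOH and 11212 and 11328 in HgCl2. Its log2 fold change was 0.06 (0.02 to 0.10), although its raw counts were lower in HgCl2, because the scaling for library size adds 0.14 to the raw log2 ratio. RPL21P16 had 10908, 10864, 10638 and 10896 counts in the same order of columns, RPL21P75 10637, 10593, 10532 and 10782, and RPL21P119 9130, 9117, 9709 and 9927. RPL21 encodes another large-subunit protein, and of these 3 copies only RPL21P119 had columns that did not overlap between the groups. Since each group counts as 1 sample, a lack of overlap is no replication. RPL7P1 (6103, 6078, 5834 and 5821), RPL9P7 (5619, 5502, 5954 and 5839), RPL21P53 (5548, 5484, 5546 and 5686) and RPL36AP37 (5612, 5623, 5339 and 5308) completed the 10 highest. All 10 had a log2 fold change between -0.04 (RPL39P3) and 0.42 (RPL7P9). Signs this close to 0 depend on the processing: 6 of the 10, RPS3AP6 at -0.11 among them, turned from above to below 0 where every column had to hold at least 10 counts, and RPL39P3 was at 0.13 on the log2(FPKM + 1) scale.

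**Figure D2:**
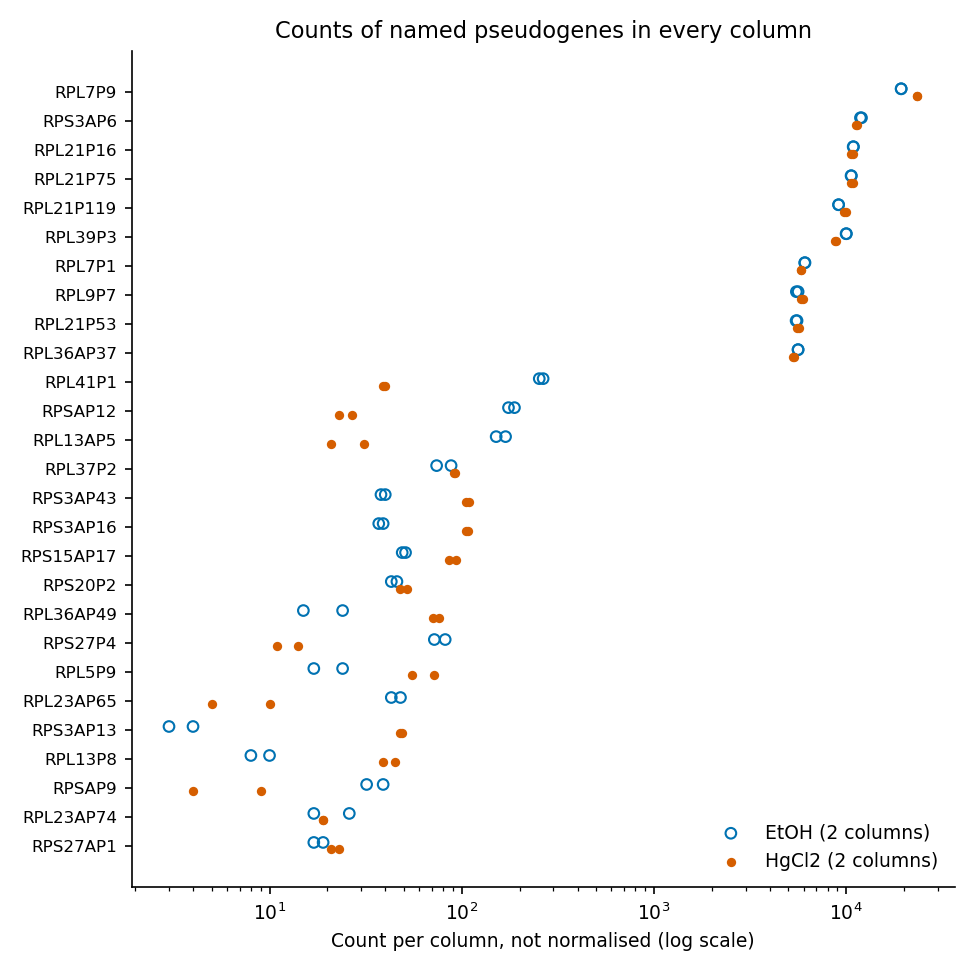
Counts of the named pseudogenes in every column, not normalised, on a log scale, with open circles for the 2 EtOH columns and filled circles for the 2 HgCl2 columns. The 10 highest lie at the top with the groups close together, and among those under 300 counts RPL41P1, RPSAP12 and RPL13AP5 lie lower in HgCl2 and RPS3AP13 higher.

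Together the 125 copies held 166163 and 165426 counts in EtOH and 162782 and 164335 in HgCl2. Of all counts this was 3.29% (3.27 to 3.30) and 3.27% (3.26 to 3.29) in EtOH and 3.45% (3.43 to 3.46) and 3.48% (3.46 to 3.50) in HgCl2, with exact binomial intervals. When transcripts of the mitochondrial genome were left out, the order turned, with 4.37% and 4.35% in EtOH and 4.20% and 4.24% in HgCl2. The 40 parent genes, summed over all their listed transcripts, held far fewer counts, with 13041 and 13048 in EtOH and 15937 and 16006 in HgCl2. Copies exceeded their parent gene 12.7 times in EtOH and 10.2 times in HgCl2. In EtOH the copies held more counts than the gene for 34 of the 40 parents, with a median ratio of 10.04. For 12 parents the coding transcripts were at 0 in all 4 columns, and for RPL13A and RPL10A the whole gene was at 0. These are genes that every cell uses, so a listed 0 is not read as silence. How reads were assigned was not tested, and the counting options are not given in the sources used here.

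Reads that could come from several places were followed by cutting each copy into all windows of 75 bases, the length of a read. Each window was looked for on both strands of the genome and in the annotated transcripts of all genes other than the copy itself. A median of 70.1% of the windows of a copy was found nowhere else. No window was unique in 5 copies, under 50% were unique in 37, at least 90% in 30, and all of them in 6. With windows of 50 bases the median was 48.2%. At least 1 window was shared with a transcript of the parent gene in 113 of the 125, and 100 shared one with another of the 125. All 258 pairs of copies that shared a window had the same parent. The rank correlation between the share of windows found in the parent and the mean count was 0.59 over the 125, as a description of copies that share parents and libraries.

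RPL21 had the most copies, 17 of 128 listed, and they show how closely copies can resemble each other. Bases 360 to 440 of the RPL21 coding sequence are given below with differing bases in capitals, for the parent on chr13:27251558-27256568 (plus strand), RPL21P16 at chr10:120354744-120354824 (minus), RPL21P75 at chr7:20003124-20003204 (plus), RPL21P119 at chr16:9156442-9156522 (minus) and RPL21P134 at chrX:75384705-75384785 (plus), all in GRCh38.
RPL21: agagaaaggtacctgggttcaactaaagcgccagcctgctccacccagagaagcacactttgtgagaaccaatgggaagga
RPL21P16: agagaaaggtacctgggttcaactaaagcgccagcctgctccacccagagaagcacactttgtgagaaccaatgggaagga
RPL21P75: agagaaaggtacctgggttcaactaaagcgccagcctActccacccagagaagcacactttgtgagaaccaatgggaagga
RPL21P119: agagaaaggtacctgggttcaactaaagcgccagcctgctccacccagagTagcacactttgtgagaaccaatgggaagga
RPL21P134: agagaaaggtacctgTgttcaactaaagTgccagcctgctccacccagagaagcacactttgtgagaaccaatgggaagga
RPL21P16 is identical to the parent over its 483 bases, none of its windows is unique, and windows of it were found at up to 12 places in the genome. RPL21P75 shares 81.7% of its windows with the parent, and over the whole copy its identity is 99.8%. RPL21P134, with an identity of 97.3%, had 34 and 35 counts in EtOH and 60 and 61 in HgCl2, against at least 10638 in every column for RPL21P16, which has the same length. The RPL21 gene itself held 54, 56, 46 and 44 counts. Summed over the 17 copies, the counts were 44743 and 44558 in EtOH and 45370 and 46664 in HgCl2. The 2 HgCl2 columns differed more for these copies than for the others. The ratio to Poisson noise was 1.49 over the 17, with an interval of 0.84 to 3.36 that includes 1, and 0.430 over the rest. In EtOH it was 0.258 over the 17. Of the 17, 14 were higher in the second HgCl2 column, but copies that share windows are not separate observations. Log2 fold changes of the 17 had a median of 0.25 and ran from -0.88 to 1.001, and the summed counts gave 0.19 (0.17 to 0.21).

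Some copies had nearly the same count in every column. Of the 7750 pairs, 4 differed by at most 2 counts in each column, and all 4 pairs joined copies of 1 parent. RPS26 gave 3 of these pairs; its protein sits at the mRNA exit of the small subunit. These copies were chosen after their values were seen. Bases 61 to 160 of the coding sequence are shown for the RPS26 gene (chr12:56041918-56044697, plus strand), RPS26P58 (chrX:24429761-24429860, minus), RPS26P47 (chr13:100540089-100540188, minus) and RPS26P15 (chr1:58056321-58056420, minus), with differing bases in capitals.
RPS26: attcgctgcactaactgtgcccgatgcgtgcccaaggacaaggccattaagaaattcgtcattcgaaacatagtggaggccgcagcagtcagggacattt
RPS26P58: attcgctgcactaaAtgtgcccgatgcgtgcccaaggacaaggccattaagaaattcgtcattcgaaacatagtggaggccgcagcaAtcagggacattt
RPS26P47: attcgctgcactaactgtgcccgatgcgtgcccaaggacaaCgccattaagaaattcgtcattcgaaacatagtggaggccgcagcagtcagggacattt
RPS26P15: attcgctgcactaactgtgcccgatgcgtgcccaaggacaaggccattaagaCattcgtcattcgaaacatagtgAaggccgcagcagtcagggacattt
RPS26P58 had 19, 14, 26 and 27 counts, RPS26P47 had 18, 14, 26 and 27, and RPS26P15 had 17, 13, 26 and 27. All 3 had EtOH counts under 20 and passed the threshold only through HgCl2. The 3 copies lie on different chromosomes and differ from each other at 4 or 5 of 348 bases. Their log2 fold changes were 0.82 (-0.11 to 1.81), 0.87 (-0.08 to 1.86) and 0.96, each with an interval that reached 0, and the 3 cannot be taken as independent measurements. The RPS26 gene had 103, 101, 190 and 174 counts, a log2 fold change of 0.98 (0.62 to 1.34), with its coding transcripts at a mean of 0 in both groups. In the other pair, RPS3AP43 had 38, 40, 109 and 105 counts and RPS3AP16 had 37, 39, 108 and 105, on chromosomes 12 and 4. They differ at 33 of 780 aligned bases and share 13 windows.

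HgCl2 and EtOH were then compared for each copy with the fit across the 17547 transcripts whose mean FPKM exceeded 1 in EtOH or HgCl2. In bulk RNA, fewer cells and less RNA per cell cannot be told apart. Of the 125, 16 (12.8%) were at least 2-fold higher in HgCl2, against 19.2% of the 8624 fitted transcripts that reached the same mean count. At least 2-fold lower were 24 (19.2%), against 12.2%, and 85 lay within 2-fold. The counting interval lay above 0 for 45 (36.0%), against 44.0%, and below 0 for 47 (37.6%), against 24.6%. The median log2 fold change was 0.06 and that of the 8624 was 0.22. Large-subunit copies had 10 higher and 14 lower of 83 with a median of 0.08, and small-subunit copies had 6 higher and 10 lower of 42 with a median of -0.04. Processed pseudogenes of other parents, 375 at the same threshold, had 52 higher (13.9%), 54 lower (14.4%) and a median of 0.02. The split of called copies depended on the scaling and the filter: 40.0% of the called copies were higher here, 52.5% with log2(FPKM + 1), 52.4% without a filter and 30.3% where every column had to hold at least 10 counts.

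The spread of log2 fold changes widened toward low counts. Of the 30 copies with a mean of at least 1000 counts, 1 was at least 2-fold higher and none was lower, with a standard deviation (SD) of 0.39, beside an SD of 0.40, 2.0% higher and 0.588% lower for the 850 fitted transcripts in that range. That copy was RPL5P34, which was picked out after its value was seen. Of the 23 copies with a mean from 200 to under 1000 counts, 3 were higher and 3 lower, with an SD of 0.74. The 1862 fitted transcripts in that range had an SD of 0.57, 5.85% higher and 2.69% lower. Of the 36 copies from 50 to under 200 counts, 6 were higher and 8 lower, with an SD of 1.17. The 2812 fitted transcripts there had an SD of 0.98, 18.5% higher and 10.2% lower. In these ranges the copies spread more than the fitted transcripts. Of the 36 copies with a mean from 20 to under 50 counts, 6 were higher and 13 lower, with an SD of 1.54, beside an SD of 1.84, 32.7% higher and 22.8% lower for the 3100 fitted transcripts in that range. Because the threshold was set on the mean of all columns, 10 copies passed with an EtOH mean under 20 and 12 with an HgCl2 mean under 20, and these passed through the counts of the other group. They include 10 of the 24 lower copies and 4 of the 16 higher ones.

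**Figure D3:**
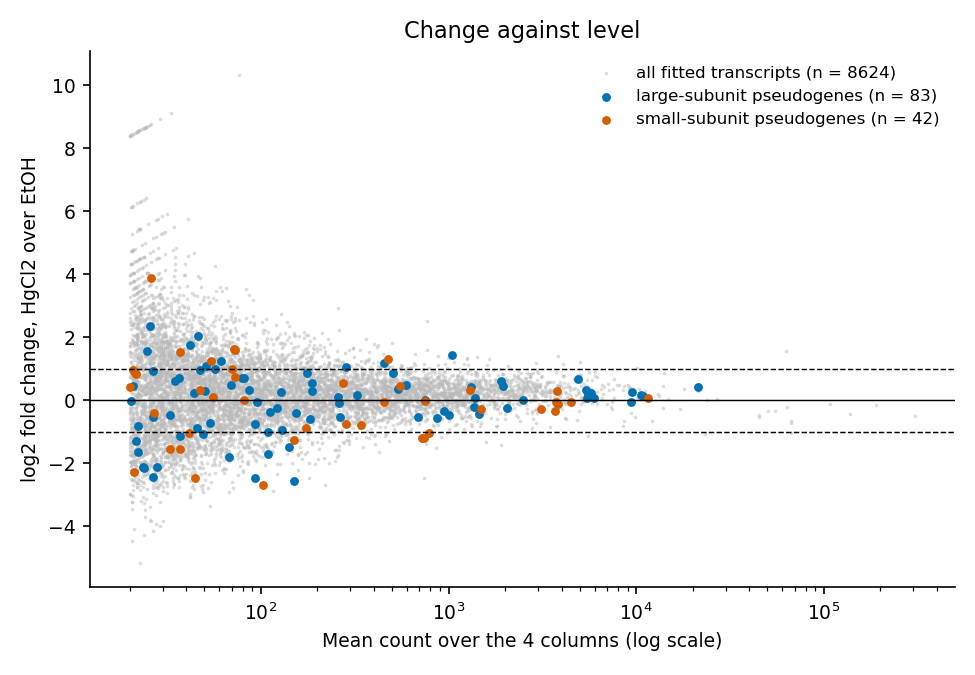
Log2 fold change of HgCl2 over EtOH against the mean count over the 4 columns on a log scale, for the 8624 fitted transcripts (grey), the 83 large-subunit copies (blue) and the 42 small-subunit copies (orange), with dashed lines at 2-fold. The cloud narrows to the right, where 1 of the 30 copies with at least 1000 counts lies outside the lines, and rows of grey points at the top left are transcripts with few or no counts in 1 group.

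The 24 copies at least 2-fold lower in HgCl2 came from 13 of the 40 parents, and RPSA, with 8 copies of 67 listed, had the most of them. RPSA encodes a small-subunit protein that is also known as the laminin receptor. All 8 copies were lower in HgCl2, 7 of them at least 2-fold, with log2 fold changes from -0.79 to -2.71. RPSAP12 (chr12:68552995-68553882, minus strand) had 175 and 188 counts in EtOH and 27 and 23 in HgCl2, a log2 fold change of -2.71 (-3.38 to -2.11), the lowest of the 125. RPSAP9 (chr9:76398699-76399586, plus strand) had 39 and 32 counts against 4 and 9, a change of -2.29 (-3.78 to -1.08), and it passed the threshold only through EtOH. The columns of the 2 groups did not overlap in either copy. Since each group counts as 1 sample, this is no replication. RPSAP54 had 1090, 1102, 472 and 481 counts and RPSAP15 had 1054, 1061, 407 and 427, with changes of -1.06 and -1.20. Summed over the 8 copies, counts were 3965 and 3970 in EtOH and 1604 and 1612 in HgCl2, a log2 fold change of -1.16 (-1.24 to -1.08). The RPSA gene, summed over all its listed transcripts, had 242 and 220 counts in EtOH and 393 and 412 in HgCl2, a change of 0.94 (0.71 to 1.18) in the opposite direction. Its coding transcripts held few of these counts, with a mean of 5.0 in EtOH and 23.5 in HgCl2. Bases 140 to 200 of the coding sequence are printed to show what the copies share: the parent is on chr3:39406720-39412542 (plus strand), RPSAP54 at chr13:20961451-20961511 (plus), RPSAP15 at chrX:87704031-87704091 (minus), RPSAP12 at chr12:68553683-68553743 (minus) and RPSAP9 at chr9:76398838-76398898 (plus).
RPSA: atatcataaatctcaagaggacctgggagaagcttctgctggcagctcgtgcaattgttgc
RPSAP54: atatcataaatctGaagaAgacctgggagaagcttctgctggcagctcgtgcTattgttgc
RPSAP15: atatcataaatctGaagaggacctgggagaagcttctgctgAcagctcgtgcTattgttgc
RPSAP12: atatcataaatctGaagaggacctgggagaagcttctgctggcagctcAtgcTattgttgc
RPSAP9: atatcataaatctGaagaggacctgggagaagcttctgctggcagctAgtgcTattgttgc
At position 153 of the coding sequence, the first capital in each line, all 8 copies carry the same base, which is not that of the annotated RPSA transcript, and at position 192 the same holds for 6 of the 8.

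Copies of RPS27, RPL13A, RPL41, RPL10 and RPL29 were lower in HgCl2 as well, and these parents were named after their values were seen. RPS27 encodes a zinc-finger protein of the small subunit, and its 3 copies are among the closest to the parent. Bases 51 to 210 of the coding sequence are given below for RPS27 (chr1:153990762-153992155, plus strand), RPS27P3 (chr12:3211708-3211867, minus), RPS27P8 (chr1:202471908-202472067, minus) and RPS27P4 (chr3:40761595-40761754, plus).
RPS27: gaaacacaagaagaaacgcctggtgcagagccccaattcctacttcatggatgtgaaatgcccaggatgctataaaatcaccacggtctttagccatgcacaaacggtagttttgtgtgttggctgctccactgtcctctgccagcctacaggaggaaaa
RPS27P3: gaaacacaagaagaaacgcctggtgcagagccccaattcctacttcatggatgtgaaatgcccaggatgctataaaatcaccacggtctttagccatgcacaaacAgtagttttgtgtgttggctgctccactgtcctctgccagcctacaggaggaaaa
RPS27P8: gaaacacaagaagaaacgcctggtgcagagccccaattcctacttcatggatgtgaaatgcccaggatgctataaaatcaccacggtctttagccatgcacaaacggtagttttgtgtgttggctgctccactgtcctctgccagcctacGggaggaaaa
RPS27P4: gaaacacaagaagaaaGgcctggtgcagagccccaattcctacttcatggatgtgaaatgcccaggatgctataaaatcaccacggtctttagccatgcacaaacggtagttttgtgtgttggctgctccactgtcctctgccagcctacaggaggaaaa
Each copy has 1 differing base in this stretch. RPS27P3 had 375, 367, 189 and 206 counts, a log2 fold change of -0.77 (-1.02 to -0.51). RPS27P8 had 213, 222, 79 and 86, a change of -1.25 (-1.64 to -0.88). RPS27P4 had 72, 82, 14 and 11, a change of -2.47 (-3.47 to -1.61), and its interval did not overlap that of RPS27P3. RPS27P4 passed the threshold only through EtOH. The RPS27 gene had 44, 44, 15 and 13 counts, a change of -1.51 (-2.49 to -0.61), with its coding transcripts at a mean of 0 in both groups.

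RPL41 encodes the shortest ribosomal protein, an arginine- and lysine-rich peptide, and both of its copies hold the whole coding sequence without a change. The 78 bases are printed for the RPL41 gene (chr12:56116633-56117967, plus strand), RPL41P1 (chr20:21755270-21755347, plus) and RPL41P2 (chr15:28315693-28315770, plus), and no capital appears because no base differs.
RPL41: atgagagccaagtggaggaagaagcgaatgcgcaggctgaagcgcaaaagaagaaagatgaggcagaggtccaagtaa
RPL41P1: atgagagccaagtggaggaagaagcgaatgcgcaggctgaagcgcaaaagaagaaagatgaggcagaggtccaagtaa
RPL41P2: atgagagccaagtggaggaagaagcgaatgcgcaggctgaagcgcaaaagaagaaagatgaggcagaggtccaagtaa
RPL41P1, annotated with 81 bases and no unique window, had 253 and 265 counts in EtOH and 40 and 39 in HgCl2, a log2 fold change of -2.57 (-3.09 to -2.08). RPL41P2, annotated with 409 bases of which 74.3% of the windows are unique, had 170 and 184 against 79 and 87, a change of -0.95 (-1.34 to -0.57). The intervals of these copies did not overlap although their coding stretches are the same. The RPL41 gene, summed over all its listed transcripts, had 134, 128, 195 and 199 counts, a change of 0.73 (0.41 to 1.06). Its coding transcripts alone went the other way, with a mean of 73.5 in EtOH and 39.0 in HgCl2. RPL13AP5, a copy of the large-subunit gene RPL13A at chr10:96750288-96750899 (plus strand), had 151 and 169 counts in EtOH and 31 and 21 in HgCl2, a change of -2.47 (-3.14 to -1.87). RPL13AP25 had 206, 221, 71 and 67, a change of -1.48 (-1.90 to -1.09), while the RPL13A gene was at 0 in every column. RPL29P4, the only copy of RPL29 that passed, had 108, 107, 27 and 29 counts, and the 3 copies of RPL10 had a summed change of -0.96 (-1.26 to -0.67).

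RPL23A, whose protein lies near the exit of the peptide tunnel, had 6 copies, all with values below 0 and 3 at least 2-fold lower. RPL23AP65 (chr11:9606142-9606609, plus strand) had 48 and 43 counts in EtOH and 10 and 5 in HgCl2, a log2 fold change of -2.44 (-3.80 to -1.33). RPL23AP42, the copy of RPL23A with the most counts, had 1753, 1724, 1165 and 1163, a change of -0.44 (-0.54 to -0.33). RPL23AP4 had 39, 39, 7 and 9 counts and RPL23AP25 had 48, 45, 8 and 11, both with a change of -2.13. These last copies, chosen after their values were seen, lie on chromosomes 21 and 1, have at most 1.0% unique windows with up to 13 places in the genome, and share no window with the parent. They share 50.4% of their windows with each other. All 3 copies past 2-fold had a mean under 20 counts in HgCl2 and so passed the threshold through EtOH.

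Copies of RPL5 lay at the other end. RPL5 encodes a large-subunit protein that carries the 5S ribosomal RNA. All 3 of its copies were at least 2-fold higher in HgCl2. They are farther from the parent than most of the 125, as bases 61 to 180 of the coding sequence show for RPL5 (chr1:92832040-92841924, plus strand), RPL5P34 (chr22:42777117-42777236, minus), RPL5P4 (chr1:35350782-35350897, plus) and RPL5P9 (chr2:110967894-110968013, plus).
RPL5: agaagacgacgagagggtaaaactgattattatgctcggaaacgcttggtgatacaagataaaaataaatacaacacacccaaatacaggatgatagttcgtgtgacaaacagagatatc
RPL5P34: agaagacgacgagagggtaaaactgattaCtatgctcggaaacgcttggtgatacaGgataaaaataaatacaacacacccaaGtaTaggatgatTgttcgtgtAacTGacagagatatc
RPL5P4: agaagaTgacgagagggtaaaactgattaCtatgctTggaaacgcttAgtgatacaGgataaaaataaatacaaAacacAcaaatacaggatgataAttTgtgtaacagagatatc
RPL5P9: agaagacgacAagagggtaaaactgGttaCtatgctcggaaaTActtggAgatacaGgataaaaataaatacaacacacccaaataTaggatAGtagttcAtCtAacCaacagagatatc
In this stretch RPL5P34 has 8 differing bases, RPL5P4 has 9 and lacks 4, and RPL5P9 has 14. RPL5P34 had 608 and 597 counts in EtOH and 1500 and 1480 in HgCl2, a log2 fold change of 1.45 (1.31 to 1.59). RPL5P4 had 195, 198, 365 and 376, a change of 1.06 (0.80 to 1.32). RPL5P9 (chr2:110967834-110968719, plus strand), in which every window is unique, had 17, 24, 72 and 55, a change of 1.77 (1.04 to 2.57). The RPL5 gene had 171 and 181 counts in EtOH and 410 and 399 in HgCl2, a change of 1.34 (1.09 to 1.61), close to the 1.37 (1.256 to 1.494) of the summed copies. These gene counts lay on transcripts other than the coding ones, which had a mean of 0 in both groups. RPL5P4 lies in ZMYM4 on the same strand, whose own transcripts had 343, 322, 458 and 472 counts, and RPL5P9 lies in ACOXL, which had none.

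RPS3A, a small-subunit gene, had 12 copies of 52 listed, and the 5 with the fewest counts differed most from the rest. The 7 copies that were not at least 2-fold higher had log2 fold changes from -0.33 to 0.55, and those 5 were at least 2-fold higher. RPS3AP13 (chr2:159689217-159690291, minus strand) had 3 and 4 counts in EtOH and 49 and 48 in HgCl2, a change of 3.89 (2.40 to 6.04), the highest of the 125 and one that rests on few EtOH counts. It passed the threshold only through HgCl2. RPS3AP16 (chr4:4076711-4077491, minus strand) and RPS3AP43 (chr12:8359054-8359834, minus strand) had changes of 1.63 (1.08 to 2.20) and 1.60 (1.06 to 2.17). RPS3AP49 had 24, 17, 54 and 54 counts and RPS3AP34 had 33, 36, 75 and 73. The 5 higher copies lie within a non-coding gene on the same strand, as does 1 of the other 7, and this was looked up after their values were seen. Counts on those non-coding genes were low, with at most 15 in any column, and for RPS3AP13 the surrounding gene had 14, 15, 9 and 10. Summed over the 12 copies, where RPS3AP6 holds most of the counts, the change was -0.0011 (-0.03 to 0.03), and the RPS3A gene had 229, 242, 294 and 291 counts, a change of 0.46 (0.20 to 0.71). Coding transcripts of RPS3A had a mean of 1.0 in both groups.

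Copies of other parents were also higher. RPL13P8 (chr3:108543367-108543875, minus strand), the copy with the lowest identity, had 8 and 10 counts in EtOH and 39 and 45 in HgCl2, a log2 fold change of 2.35 (1.31 to 3.59), and every window of it is unique. It passed the threshold only through HgCl2. RPL36AP49 (chr18:13919603-13919923, minus strand) had 15 and 24 against 76 and 71, a change of 2.05 (1.32 to 2.86). RPL36AP37, the copy identical to the large-subunit gene RPL36A, had a change of 0.07 (0.01 to 0.12). Of the 6 copies of RPL36A, 2 were at least 2-fold higher and 5 lay above 0. RPS20P14, named after its value was seen, had 297, 289, 650 and 666 counts, a change of 1.31 (1.11 to 1.51), while the RPS20 gene had 150, 151, 60 and 54, a change of -1.26 (-1.72 to -0.81). Of the other copies with only unique windows, RPS15AP17 had 49, 51, 93 and 86 counts, RPL37P2 had 88, 74, 91 and 92, and RPS20P2 had 46, 43, 48 and 52. In the last 2 the interval included 0.

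Values were also looked at by parent, over the 28 parents with at least 2 copies, which held 113 of the 125. All copies lay above 0 for 8 of these parents and below 0 for 9, while 11 had copies on both sides of 0, and 13 of the 28 had only 2 copies. Of the 8 parents with 2 or more copies past 2-fold, none had them in both directions. No test was made of this. The SD of log2 fold changes was 0.79 within parents and 0.90 between the parent means. Copies of 1 parent share windows, so their values are not independent measurements. Parents also differed in the mean GC content of their copies, with 51.7% for RPSA, 57.3% for RPL13A and 43.7% for RPL5. Copies of RPL15 (52.6%) and RPS26 (52.8%) all lay above 0. GC content and parent were not separated here. RPL7, with 8 copies, had none past 2-fold, a range from -0.54 to 0.92 and a summed change of 0.38 (0.36 to 0.40). When counts were summed per parent, 3 of the 40 parents were at least 2-fold higher (RPL5, RPL13 and RPS20) and 7 were lower.

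**Figure D4:**
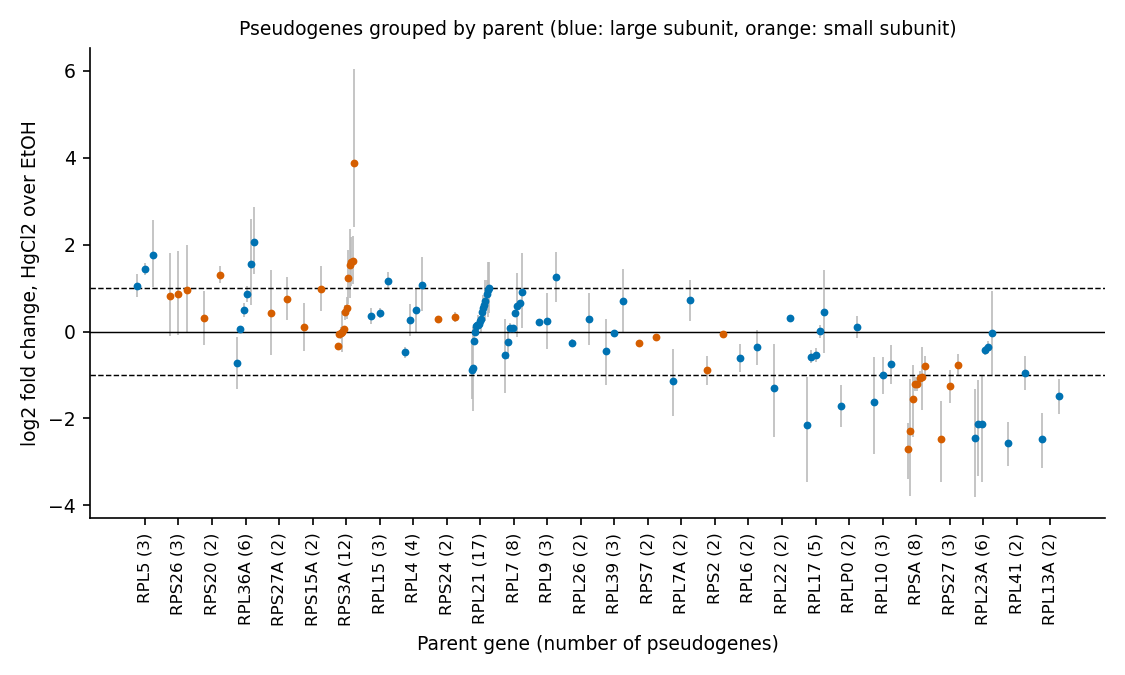
Log2 fold change of HgCl2 over EtOH for each copy of the 28 parents with at least 2 copies, ordered by the median, with 95% exact counting intervals as grey bars and dashed lines at 2-fold. RPL5 lies at the left with all 3 copies above the upper line, RPL21 near the middle spans -0.88 to 1.001, and RPSA, RPS27, RPL41 and RPL13A lie at the right with every copy below 0.

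Parent genes and copies were set side by side without a test, because reads of one can be assigned to the other. For 35 parents the gene had more than 3 counts in both groups, and the log2 fold change of the gene had the same sign as that of the summed copies in 16 of them. The median change of these genes was 0.37. Over the 89 cytosolic ribosomal protein genes found by symbol, 13 were at 0 in every column, and of the 56 that reached a mean of 20 counts, 3 were at least 2-fold higher and 7 lower, with a median of 0.35. Among their single transcripts that were fitted and reached that mean, the 40 coding ones had 7 higher and 12 lower with a median of -0.16. The 52 with a retained intron had 11 higher and 3 lower with a median of 0.60, beside 19.2% higher and 12.2% lower over the 8624 fitted transcripts.

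Base composition varied with the change. GC content of the copies ran from 39.0% to 61.2% with a median of 45.5%, beside 42.6% for the fitted transcripts. Among the 42 copies with the highest GC content (49.3% to 61.2%), 2 were at least 2-fold higher and 21 lower, with a median log2 fold change of -0.98. Fitted transcripts in the same GC range had 14.6% higher, 19.96% lower and a median of -0.10. Among the 42 copies with the lowest GC content (39.0% to 43.3%), 9 were higher and 1 lower with a median of 0.32. Fitted transcripts of that range had 20.5% higher, 9.57% lower and a median of 0.29, so the share that was higher was near theirs. The rank correlation between GC content and log2 fold change was -0.48 over the 125, -0.44 over the 375 other processed pseudogenes and -0.20 over 8567 fitted transcripts, given as a description of features from the same libraries. After subtraction of the median of fitted transcripts of like GC content it was -0.36 over the 125. The share of unique windows moved with the change too. Of the 37 copies with under 50% unique windows none was higher and 7 were lower, and of the 30 with at least 90% 10 were higher and 2 lower, with a median of 0.55. Those 30 had a median of the mean counts of 45.2, against 945.0 for the 37. Among fitted transcripts with 20 to 50 counts 32.7% were higher and 22.8% lower. From 200 to under 1000 counts, the range that holds the median of the 37, 5.85% were higher and 2.69% lower. The 7 lower copies all had a mean under 200 counts, however. From 50 to under 200 counts 18.5% of fitted transcripts were higher and 10.2% lower. The part of GC content, shared sequence and count level in these differences was not tested.

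**Figure D5:**
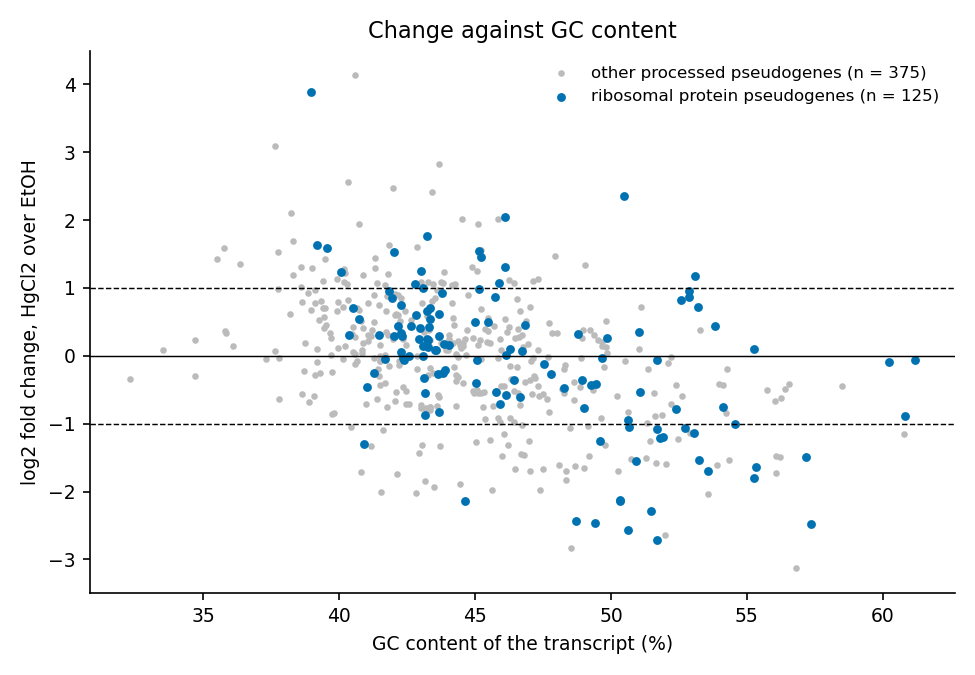
Log2 fold change of HgCl2 over EtOH against the GC content of the transcript in percent, for the 125 ribosomal protein copies (blue) and the 375 other processed pseudogenes (grey), with dashed lines at 2-fold. Blue points above 49.3% GC lie mostly below 0, with 21 of 42 under the lower line.

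Copies on both sides of the threshold had low counts. Just inside lay RPL23AP74 with 26, 17, 19 and 19 counts and RPS27AP1 with 19, 17, 21 and 23. Just outside lay RPS2P7 with 29, 29, 8 and 13 and RPS18P12 with 20, 26, 20 and 12, level with RPL13AP20 at a mean of 19.5. Copies under the threshold held little of the total, since the 125 held between 99.2% and 99.5% of all counts on listed ribosomal protein pseudogenes in each column.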

How the data were processed

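RNA-seq of H1299 cells was taken from 2 deposited tables with 4 columns. The authors made the counts per transcript after alignment with STAR 2.5.4b to GRCh38, and the deposited FPKM values from the counts with DESeq2 1.26.0; how reads with several matches were counted is not given in the sources used here. Members and lists were chosen with earlier results of these data known. Transcript IDs were matched to GENCODE 44 (223558 of 227368 found). Log2 fold changes came from edgeR 4.0.16 (glmQLFit, TMM, R 4.3.3) on the 17547 transcripts whose mean FPKM exceeded 1 in EtOH or HgCl2. Intervals are exact Clopper-Pearson 95% intervals of the mean counts. Past 2-fold means a log2 fold change of at least 1 in size. The fit was tested on simulated data.

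Identity came from a local alignment to the canonical transcript of the parent (Biopython 1.88; match 2, mismatch -3, gap open -5, gap extension -2). Windows of 75 bases were looked up in the whole genome and the transcripts. Sequences are those of GRCh38 and GENCODE 44. Copies were named by rule: the 10 highest mean counts, the 6 highest and 6 lowest log2 fold changes, the 4 most and 4 least unique, with ties broken by the higher mean count, and 2 on each side of the threshold. The copies of the 3 largest parents were given by their range and count, and not all of them by name. All other named copies were named after their values were seen. Alternatives covered other size factors, other filters, FPKM with a pseudocount of 1, the replicate block, single columns left out, GC correction and sums per parent.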

Additional observations from a re-analysis of the deposited data

How the results depend on the processing

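The counts of copies past 2-fold, 16 higher and 24 lower, stayed within 1.5 times under DESeq2 size factors, total counts, no filter, log2(FPKM + 1), GC correction and a mean of at least 10 counts. With at least 10 counts in every column 10 were higher and the median log2 fold change was -0.10. With a mean of at least 50 counts 10 were higher and 11 lower. With at least 50% unique windows 16 were higher and 17 lower, with a median of 0.20. Summed per parent, 3 were higher and 7 lower, with a median of -0.088. The members' share of all counts was 4.36% in EtOH and 4.22% in HgCl2 without mitochondrial transcripts, and 3.26% in EtOH with a mean of at least 50 counts. The cause was not tested, beyond the fewer copies counted. Leaving out 1 column gave 15 to 18 higher, 23 to 24 lower and a median of 0.05 to 0.07. With the replicate number as a block the values were 16, 24 and 0.06. Pairing was not judged by p-values, since each group counted as 1 sample. Across scalings the median of the 8624 fitted transcripts moved by at most 0.19 in size, with a shift of -0.19 for at least 10 counts in every column, 0.14 without a filter and 0.13 with FPKM, and the median of the copies stayed between -0.10 and 0.24. The alternatives that require 50% unique windows, sums per parent and GC correction were chosen after seeing the data. For the 20 copies with a mean under 30 counts the counting interval was between 1.68 and 3.63 log2 units wide, which limits what single low copies can show. Of the 10 copies with the highest counts, GC correction turned the sign of 5, with RPS3AP6 at -0.22.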
